A study of Homo sapiens with 6 samples.

Results

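Potassium channel genes were read out of an expression table for C4-2, a prostate cancer cell line that was established from LNCaP. Members were all table names that begin with KCN followed by a letter and hold no hyphen, whatever their values, which gave 97 of the 26760 names used here. Polyadenylated RNA had been sequenced from cells at passages 10 to 15, all grown in RPMI with serum, that received vehicle, the EZH2 inhibitor GSK126, astemizole, lentivirus with a scramble shRNA, or lentivirus with either of 2 EZH2 hairpins. The labels list 6 libraries, 1 per treatment, with no dose or duration for the compounds. The table gives 5 columns of FPKM, fragments scaled to transcript length and library size, so that levels can be compared between genes. Its last column stands for the EZH2 knockdown as the authors set it, and the way the hairpin libraries entered it was not given in the sources used here. Each condition thus has 1 value, no difference has a replicate check, and no test, p-value or standard deviation can be given. Being bulk RNA, the values cannot tell fewer cells of a type apart from less RNA per cell.

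Potassium channels let potassium leave or enter the cell along its gradient and so set the membrane potential. Voltage-gated (Kv), KCNQ and KCNH subunits assemble as tetramers that open on depolarisation, calcium-activated subunits (KCNM, KCNN) respond to intracellular calcium, inward rectifiers (KCNJ) pass current near rest, and K2P subunits (KCNK) carry background leak. Accessory subunits such as KCNE, KCNIP, KCNAB and KCNMB bind the pore subunits and change their gating or trafficking. Astemizole is an antihistamine known to block KCNH channels and is also reported to disturb the binding of EZH2, the catalytic subunit of the repressive complex PRC2, to its partner EED. GSK126 inhibits the catalytic activity of EZH2. The questions here were which channel genes C4-2 cells express and whether their RNA differs between the treatments.

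EZH2, the hairpins' target, had 3.35 FPKM in the knockdown column against 24.6 under the scramble hairpin. Vehicle had 26.5, GSK126 17.5 and astemizole 9.48 FPKM. All 10 prostate luminal markers examined stood at 17.6 FPKM or more in every column. Of the marker lists for other cells, the 10 liver genes had a summed level of 21.4 FPKM with vehicle and 183 with GSK126, against 2.04 to 5.62 in the other columns, with no gene at 0 throughout. The 8 blood cell genes summed to 1.92 to 10.1 FPKM, the highest sum with GSK126. Fibroblast genes summed to 1.40 to 3.28 FPKM, muscle genes to 0.799 to 1.53 (DES and MYL1 at 0 in all columns), endothelial genes to 0.466 to 0.836 and neuron genes to 0.212 to 0.545. The part of these other genes in the ratios to vehicle or for GSK126 was not tested.

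Read totals are not in the table. Among low values the most frequent ratio to vehicle was 0.948 for GSK126, 1.05 for astemizole and 0.858 for scramble shRNA, read here as the relative worth of 1 read. For 9 of the 39 members under 1 FPKM with at least 2 libraries above 0, the library values were whole multiples of such a step, within 0.04 reads and up to 8 reads. The smallest whole numbers that fit were taken, though larger multiples of them would fit too. How many genes would fit by accident was not tested. On this reading, 1 read in these 9 genes was worth 0.00915 to 0.0344 FPKM with vehicle. The inward rectifier gene KCNJ10, for instance, was fitted by 1 read with vehicle, 1 with GSK126, 4 with astemizole and 3 with scramble shRNA. If so, values of a few hundredths of an FPKM rest on a few reads in these genes.

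C4-2 cells expressed a minority of the potassium channel genes. Of the 97 members, 21 (21.6%) reached 1 FPKM somewhere among the 5 columns, against 48.3% of all names used and 61.2% of the names that RefSeq lists as protein coding. A further 55 (56.7%) were above 0 but under 1 FPKM, and 21 (21.6%) were listed at 0 in all 5 columns. The shares of all names used were 28.3% and 23.4%, and 12.7% of the protein coding names were at 0 throughout. At least 1 FPKM in all 5 columns was reached by 12 members (12.4%), against 42.3% of all names used. In at least 1 column 7 members (7.22%) reached 5 FPKM or more, against 36.1% of all names used. With vehicle alone, 13 members were at 1 FPKM or more, and the share of all names in that column was not counted. Close to the threshold, KCND2, KCNQ5 and KCNU1 had highest values of 1.44, 1.16 and 1.09 FPKM, while KCNJ14 and KCNJ13, just under it, had 0.861 and 0.817 FPKM.

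**Figure D1:**
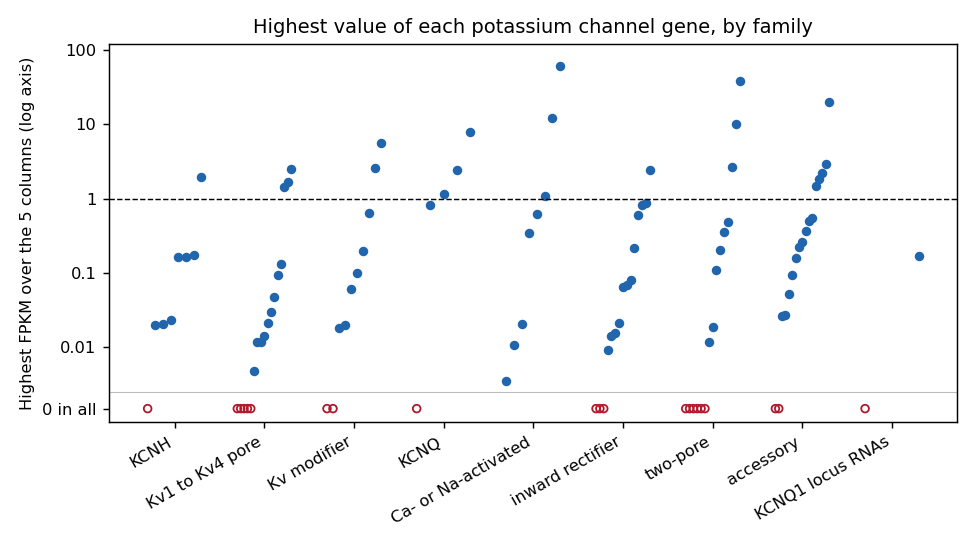
The highest FPKM over the 5 columns (log axis) is plotted for each of the 97 members, grouped by family, with open circles for names listed at 0 in all columns and a dashed line at 1 FPKM. Each family has more members below the line than above it except KCNQ, and the 2 highest points belong to the calcium-activated and the K2P families.

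Families differed in how many members reached 1 FPKM in at least 1 column, treated columns included. KCNQ genes had 3 of 5 members at 1 FPKM or more, the calcium- or sodium-activated pore genes 3 of 8, the accessory genes 5 of 17, the modifier Kv genes, whose products form no channel by themselves, 2 of 10, the K2P genes 3 of 15, the Kv1 to Kv4 pore genes 3 of 17, the KCNH genes 1 of 8 and the inward rectifiers 1 of 15. In all 5 columns, 1 FPKM was reached by 4 accessory genes and by 2 each of the KCNQ, K2P and calcium- or sodium-activated genes. The modifier Kv genes and the inward rectifiers had 1 each, and the KCNH and the Kv1 to Kv4 pore genes 0. No KCNA gene reached 1 FPKM in any column. KCNA2, KCNA3, KCNA4, KCNA5 and KCNA10 were listed at 0 throughout, and KCNA1, KCNA6 and KCNA7 peaked at 0.00478, 0.0117 and 0.0300 FPKM. Also listed at 0 in every column were KCNE3, KCNG4, KCNH1, KCNIP1, KCNJ8, KCNJ15, KCNJ16, KCNK2, KCNK12, KCNK15, KCNK16, KCNK17, KCNK18, KCNQ3, KCNV1 and KCNQ1DN. Of these, KCNQ1DN was not matched to a protein coding name in RefSeq and was placed in no channel family. A listed 0 can be a failed estimate, and without read totals no upper limit can be set on it. Among the 55 members in between, 30 peaked below 0.1 FPKM, 17 from 0.1 to 0.5 and 8 from 0.5 to 1. Their number includes KCNQ1OT1, an imprinted antisense RNA of the KCNQ1 locus and no channel subunit, which peaked at 0.172 FPKM.

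KCNH1 and KCNH2 encode the EAG1 and hERG subunits, the channels that astemizole is best known to block. KCNH1 was listed at 0 FPKM in all 5 columns. KCNH2 stood at 0.572 FPKM under vehicle, 0.404 under GSK126, 1.95 under astemizole, 0.606 under the scramble hairpin and 0.505 after EZH2 knockdown. The astemizole value was the only one above 1 FPKM, while the other columns lay within 0.404 to 0.606. Astemizole was 3.41 times vehicle and 4.83 times GSK126. On the scale used for all genes below, log2 of FPKM + 1, KCNH2 had 0.91 against vehicle, just under 2-fold, 1.07 against GSK126 and 0.88 against the scramble column. GSK126 against vehicle gave -0.16 and the knockdown against scramble -0.09.

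**Figure D2:**
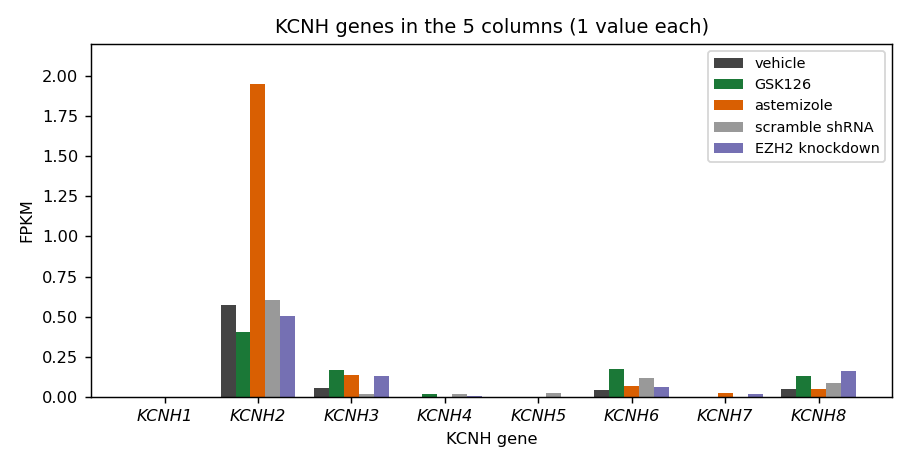
FPKM of the 8 KCNH genes is shown as bars from 0, 1 bar per column and gene, each bar a single value. KCNH2 with astemizole, at 1.95 FPKM, is the only bar above 1 FPKM, and KCNH1 has none above 0.

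The other KCNH genes were lower than KCNH2 in every column. KCNH6, another ERG-type gene, peaked at 0.175 FPKM with GSK126, KCNH3 at 0.165 with GSK126 and KCNH8 at 0.163 in the knockdown column. KCNH5, KCNH7 and KCNH4 peaked at 0.0237, 0.0206 and 0.0202 FPKM. For KCNH4 the smallest whole-number fit to the values with GSK126 and scramble shRNA was 1 read each. Summed over the family, the level was 2.22 FPKM with astemizole and 0.717 to 0.894 in the other columns, and KCNH2 made up most of the astemizole sum.

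At the other end, KCNN2 and KCNK1 together held 53.5% to 57.7% of the summed FPKM of all members in every column. KCNN2 encodes the SK2 small-conductance channel, opened by calcium through calmodulin. Its level was 29.4 FPKM under vehicle, 56.6 under GSK126, 57.3 under astemizole, 34.4 under the scramble hairpin and 60.8 after EZH2 knockdown. Both controls lay below all 3 perturbed columns, which sat within 56.6 to 60.8 FPKM. The log2 ratios were 0.92 for GSK126 and 0.94 for astemizole, which share the vehicle column, and 0.80 for the knockdown against scramble. All 3 stayed under 2-fold, and scramble against vehicle gave 0.22. With each treatment set against the other control the values were 0.70, 0.72 and 1.02.

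KCNK1 encodes TWIK1, a K2P channel with weak current that resides largely in endosomes. It had 37.7, 27.1, 31.2, 28.2 and 22.5 FPKM, in the same order of columns. Vehicle was the highest column and the knockdown the lowest. Among the members, KCNK1 led with vehicle and was second to KCNN2 in the other 4 columns. Its log2 ratios were -0.46, -0.27 and -0.31 for GSK126, astemizole and the knockdown, and scramble against vehicle gave a like value, -0.41. Against the scramble column astemizole gave 0.14.

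Stretches of 250 bases before the start site, from RefSeq on GRCh38.p14, are printed for the KCNH pair named above and for the 2 members with the highest levels, because their promoters span the range from a gene listed at 0 to the most abundant ones. Capitals mark each CG dinucleotide, the base pair step that Polycomb-bound CpG islands are rich in. CG reads the same on both strands, and overlaps with other motifs were not considered. The first start site that RefSeq's table lists was taken, of 5 for KCNH2 and 1 for each of the others. KCNH2 lies at chr7:150978322-150978571 on the minus strand, KCNH1 at chr1:211134149-211134398 on the minus strand, KCNN2 at chr5:114361820-114362069 on the plus strand and KCNK1 at chr1:233613856-233614105 on the plus strand. All are written 5′ to 3′ along the gene.
KCNH2: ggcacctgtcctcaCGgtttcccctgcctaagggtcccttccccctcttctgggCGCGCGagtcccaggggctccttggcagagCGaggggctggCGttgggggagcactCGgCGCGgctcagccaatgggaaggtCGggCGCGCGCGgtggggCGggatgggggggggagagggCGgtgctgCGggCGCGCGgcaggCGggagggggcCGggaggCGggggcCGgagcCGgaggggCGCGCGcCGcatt
KCNH1: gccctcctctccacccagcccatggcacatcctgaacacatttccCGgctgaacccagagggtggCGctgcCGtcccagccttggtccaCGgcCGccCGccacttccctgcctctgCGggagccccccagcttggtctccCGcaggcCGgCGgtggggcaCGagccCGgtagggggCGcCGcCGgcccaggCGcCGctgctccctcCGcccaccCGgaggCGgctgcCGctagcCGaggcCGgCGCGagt
KCNN2: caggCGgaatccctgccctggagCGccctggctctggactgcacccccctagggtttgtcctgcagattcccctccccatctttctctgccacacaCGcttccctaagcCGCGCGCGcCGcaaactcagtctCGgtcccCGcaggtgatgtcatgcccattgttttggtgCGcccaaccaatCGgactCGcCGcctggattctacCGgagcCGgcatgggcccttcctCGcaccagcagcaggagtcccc
KCNK1: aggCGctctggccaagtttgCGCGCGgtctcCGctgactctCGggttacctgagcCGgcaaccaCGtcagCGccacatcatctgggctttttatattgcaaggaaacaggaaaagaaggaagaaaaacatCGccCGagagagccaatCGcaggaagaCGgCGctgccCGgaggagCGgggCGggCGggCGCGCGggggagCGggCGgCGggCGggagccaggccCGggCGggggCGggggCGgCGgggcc

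These windows held 29 CG steps for KCNH2, 25 for KCNH1, 17 for KCNN2 and 30 for KCNK1. Thus KCNH1, listed at 0, and KCNK1, among the highest, were both CG-rich. A promoter was found for 72 of the 97 members. The median was 18 CG over the 15 found of 21 members at 1 FPKM or more, 17.5 over 40 of the 55 between, and 6 over 17 of the 21 listed at 0. Across all names used with a promoter, 14821 of 26760, it was 17, and 96.7% of those windows held at least 1 CG. At least 10 CG were present in 12 (80%), 25 (62.5%) and 6 (35.3%) of the member windows in the same order, against 68% of all. Over the 9096 windows of names at 1 FPKM or more the median was 21 and 86.5% held at least 10 CG, so the expressed members lay above all names and below the expressed ones. Windows of all names listed at 0 were not summarised, so the median of 6 CG in the members at 0 has no like group beside it. This is a description of letters in 1 window per gene, and it carries no test.

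KCNMA1 was the member that most separated the treatments among the higher genes. It encodes the pore of the BK channel, which opens on voltage and calcium together. Its values were 7.25 FPKM under vehicle, 12.3 under GSK126, 5.48 under astemizole, 4.95 under the scramble hairpin and 10.9 after EZH2 knockdown. GSK126 and the knockdown column were high, astemizole and scramble shRNA low, and vehicle lay between them. The knockdown was 2.21 times scramble, a log2 ratio of 1.00 that just passed 2-fold, but only 0.53 with vehicle as the control. Astemizole against GSK126 gave -1.03. GSK126 gave 0.68 against vehicle and 1.16 against scramble, and astemizole -0.35 and 0.12, so its sign depended on the control. LRRC26, the gamma subunit that lets BK channels open at resting voltage and calcium, is no member by name but was far more abundant, with 218, 186, 106, 198 and 140 FPKM from vehicle to knockdown. It was lowest with astemizole, at a log2 ratio of -1.04 to vehicle. The beta subunit gene KCNMB3 was at 1.29 to 1.82 FPKM, KCNMB4 peaked at 0.547, and KCNMB1 and KCNMB2 at 0.0275 and 0.0515.

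KCNU1, a sperm-specific relative of KCNMA1, had 0.101, 0.213, 0.342, 0.0288 and 1.09 FPKM from vehicle to knockdown. Only the knockdown column exceeded 1 FPKM, and scramble shRNA was the lowest. The log2 ratio was 1.02 against scramble and 0.93 against vehicle. Among the other calcium- or sodium-activated genes, KCNN1 peaked at 0.617 FPKM, KCNT1 at 0.345, KCNN4 at 0.0208, KCNN3 at 0.0109 and KCNT2 at 0.00355.

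The 2 members at least 2-fold higher with astemizole than with vehicle were KCND3 and KCNG1. KCND3 encodes Kv4.3, a pore of transient A-type currents, and had 0.346 FPKM under vehicle, 1.59 under GSK126, 2.5 under astemizole, 1.46 under the scramble hairpin and 1.34 after EZH2 knockdown. Vehicle was the low column and astemizole the highest, and the remaining columns sat within 1.34 to 1.59. Its log2 ratio was 1.38 for astemizole against vehicle but 0.51 against scramble, while GSK126 gave 0.94 and scramble shRNA itself 0.87 against vehicle. KCNG1 encodes Kv6.1, which modifies other Kv channels, and had 0.687 FPKM under vehicle, 1.05 under GSK126, 2.55 under astemizole, 0.173 under the scramble hairpin and 0.461 after EZH2 knockdown. Astemizole was again highest, with a log2 ratio of 1.07 against vehicle and 1.60 against scramble, the lowest column.

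KCND2, which encodes Kv4.2, went another way. It had 0.639, 1.44, 0.186, 0.231 and 0.155 FPKM from vehicle to knockdown. GSK126 was the highest column, vehicle the next, and the other 3 lay within 0.155 to 0.231. Astemizole against GSK126 gave a log2 ratio of -1.04, and GSK126 gave 0.58 against vehicle and 0.99 against scramble. KCNIP3, a calcium-binding partner of Kv4 channels, had 0.382, 0.74, 1.46, 0.382 and 0.441 FPKM. Astemizole was highest, and the controls were the lowest and nearly equal. Its log2 ratio of 0.83 for astemizole held the same value against either control.

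On the log2 scale of FPKM + 1, the accessory and K2P genes described next stayed under 2-fold in the 5 comparisons. KCNAB2, the beta subunit of Kv1 channels with an aldo-keto reductase fold, had 11.4, 14.1, 20, 9.63 and 9.17 FPKM. Astemizole was the highest column, at a log2 ratio of 0.76 to vehicle and 0.98 to scramble, whereas its KCNA pore partners were at or near 0 as given above. KCNK5, the alkaline-activated TASK2 channel, had 6.99, 7.26, 7.37, 5.71 and 10.2 FPKM. The knockdown column stood above the other 4, with 0.74 against scramble. KCNK6 (TWIK2) had 1.89, 2.67, 1.58, 1.51 and 0.614 FPKM. Here the knockdown column was the lowest, 0.406 times scramble, with log2 ratios of FPKM + 1 of -0.64 against scramble and -0.84 against vehicle.

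KCNQ1, which carries slow delayed rectifier current in heart and epithelia, had 5.11, 5.62, 7.83, 5.03 and 3.63 FPKM. It was highest with astemizole (0.53 against vehicle) and lowest in the knockdown column (-0.38 against scramble). Its partner KCNE2, which also binds KCNH2, was at 1.74 to 2.23 FPKM in all columns. KCNS3, which modifies other Kv channels, had 5.03, 3.19, 4.86, 5.61 and 3.73 FPKM, with GSK126 and the knockdown low at -0.52 and -0.48. KCNQ5 lay at 0.309 to 1.16 FPKM with its lowest value under astemizole, and KCNRG, a cytosolic suppressor of Kv channels, at 1.96 to 2.95.

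KCNJ11 was the sole inward rectifier at 1 FPKM or more. It encodes Kir6.2, the pore of ATP-sensitive channels, and had 2.42, 2.43, 2.41, 1.85 and 2.02 FPKM. No column differed from another by more than 1.31 times. Of the sulfonylurea receptors that complete this channel, ABCC9 was at 0.982 to 1.53 FPKM and ABCC8 at 0.240 to 0.463. Just under the threshold, KCNJ13 had 0.0754, 0.405, 0.817, 0.172 and 0.363 FPKM, lowest with vehicle and highest with astemizole, and KCNJ14 had 0.861, 0.731, 0.222, 0.738 and 0.663 FPKM, with astemizole the lowest column.

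**Figure D3:**
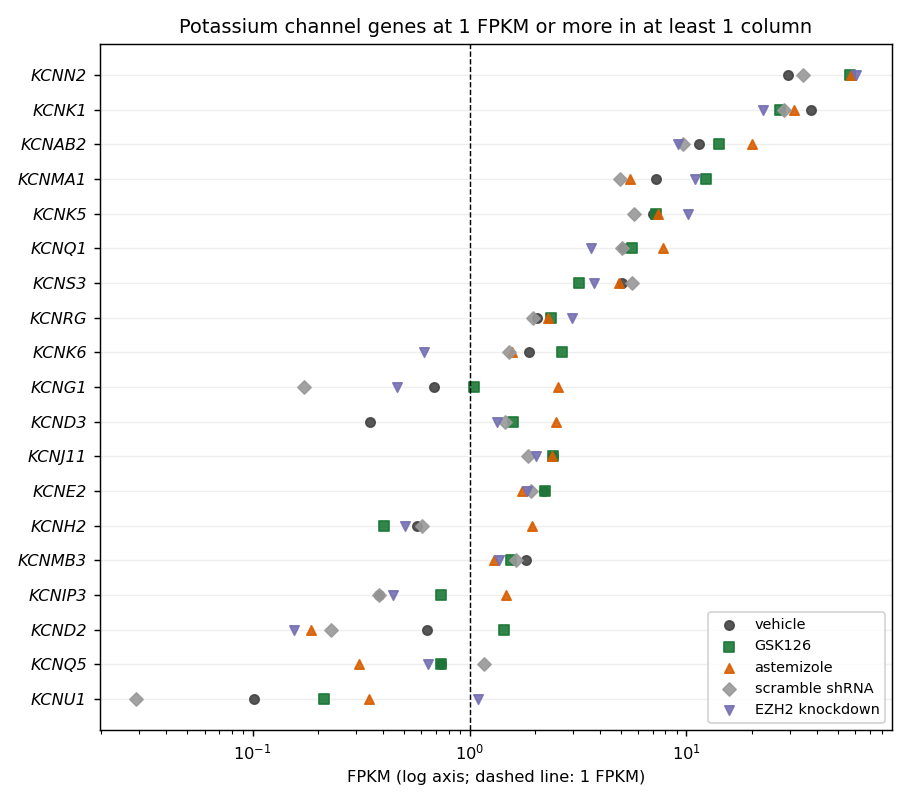
FPKM (log axis) of 19 of the 21 members that reached 1 FPKM, with 1 symbol per column of the table and a dashed line at 1 FPKM. KCNN2 separates into a lower control pair and a higher group of 3. Astemizole is the rightmost symbol for KCNH2, KCND3, KCNG1, KCNIP3, KCNAB2 and KCNQ1, and the leftmost for KCNQ5, KCNE2 and KCNMB3.

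Counted over the 21 members at 1 FPKM or more, few passed 2-fold in any comparison. For GSK126 against vehicle 0 members were past 2-fold upward and 0 downward, where 1.05% and 0.952% of the 12925 genes at 1 FPKM or more were. For astemizole against vehicle, 2 were higher (KCND3, KCNG1) and 0 lower, beside 3.53% and 5.49% of all genes. The knockdown against scramble had 2 higher (KCNMA1, KCNU1) and 0 lower, beside 1.93% and 5.11%. Astemizole against GSK126 had 1 higher (KCNH2) and 2 lower (KCND2, KCNMA1), beside 2.19% and 3.28%. Between the controls, scramble against vehicle, no member passed in either direction, and 0.170% of all genes were higher and 0.851% lower. With 21 members these shares amount to about 1 gene or fewer per direction, so counts of 0 to 2 give no more than the named genes themselves. KCNH2, KCNIP3, KCND2, KCNU1 and KCNQ5 passed the level threshold through a single column and so had to differ between columns.

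Median log2 ratios of the 21 members lay close to 0: 0.12 for GSK126, 0.07 for astemizole, -0.04 for the knockdown, 0.02 for astemizole against GSK126 and -0.10 for scramble against vehicle. The same medians over all 12925 genes were -0.04, -0.06, 0.03, -0.05 and -0.11. The summed FPKM of all members was 125 for vehicle and 114 for the scramble control, against 154 for GSK126, 162 for astemizole and 144 for the knockdown. KCNN2 accounted for most of the gap between the controls and the perturbed columns.

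**Figure D4:**
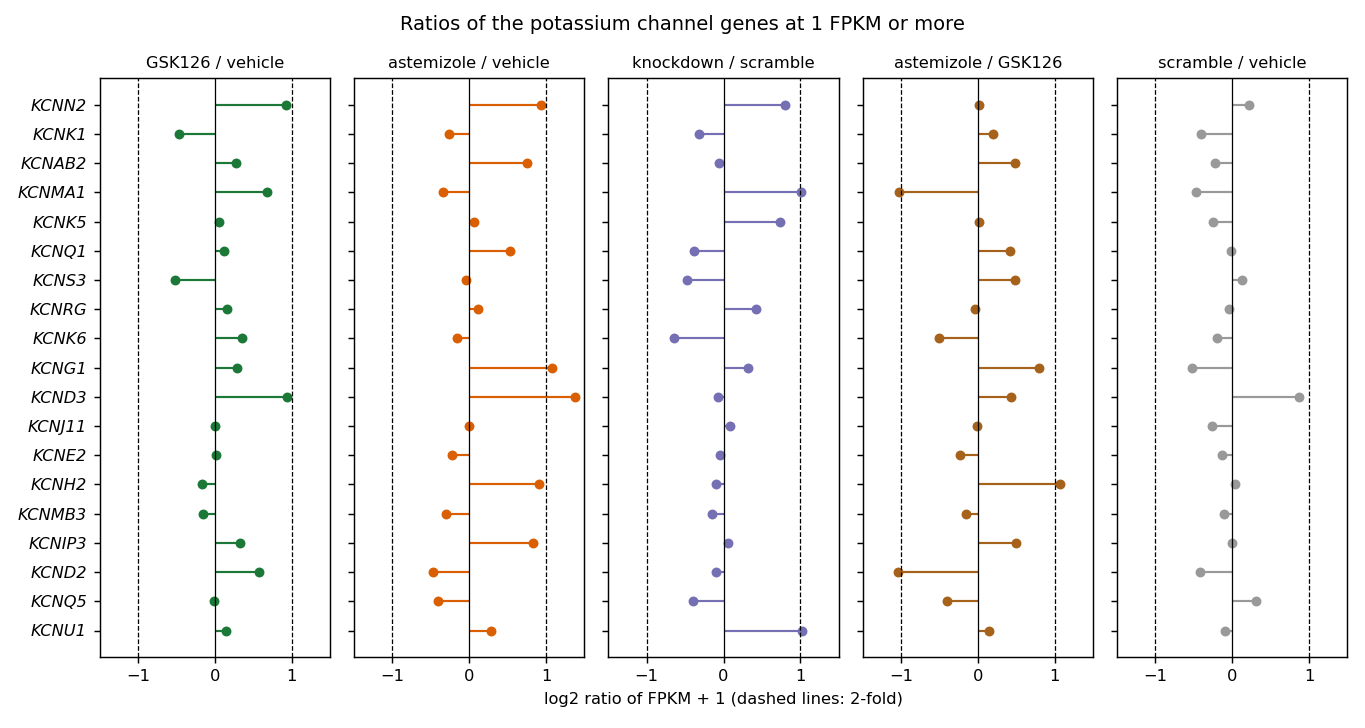
Log2 ratios of FPKM + 1 for 19 of the 21 members in the 5 comparisons, 1 panel each, with members in the order of their highest level and dashed lines at 2-fold. Only KCND3 and KCNG1 (astemizole), KCNMA1 and KCNU1 (knockdown), and KCNH2, KCND2 and KCNMA1 (astemizole against GSK126) have values past a dashed line.

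Other genes of potassium handling were taken from a list of 40 transporters, pumps, partner subunits and their kinases, of which 20 were at 1 FPKM or more. Astemizole against vehicle had 1 of these at least 2-fold higher and 2 lower, the knockdown against scramble 0 and 1, astemizole against GSK126 1 and 1, and GSK126 against vehicle 0 and 0. Over all 12925 genes the shares higher and lower, in that order of comparisons, were 3.53% and 5.49%, 1.93% and 5.11%, 2.19% and 3.28%, and 1.05% and 0.952%. STK39, the SPAK kinase that regulates cation-chloride cotransporters, had 119, 107, 47, 107 and 45.1 FPKM, with astemizole and the knockdown low at log2 ratios of -1.32 and -1.23. HCN2, a hyperpolarisation-activated channel of the same superfamily, had 0.447, 0.329, 1.91, 0.383 and 1.06 FPKM and a ratio of 1.01 with astemizole. LRRC26 was the other gene past 2-fold. FXYD3, a regulator of the sodium pump, had 0.93 with astemizole, beside 0.51 for scramble against vehicle. The cotransporter gene SLC12A2 had 0.87 with GSK126, beside 0.32 between the controls. The pump subunit gene ATP1B1 stood at 35.7 to 59.4 FPKM, with 0.72 in the knockdown column against scramble, whose own ratio to vehicle was -0.49.

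Several of the members at 1 FPKM or more share exons with other genes in GENCODE release 29. Members below that level were not searched for overlaps, and strand use in counting was not given in the sources used here. KCNRG overlaps TRIM13 and KCNMB3 overlaps LRRFIP1P1 on the same strand, so their reads may be shared. On the opposite strand, KCNMB3 overlaps PIK3CA, KCNQ1 overlaps KCNQ1OT1, KCNAB2 overlaps NPHP4 and KCNMA1 overlaps KCNMA1-AS1. KCNE2, KCNG1, KCNN2 and KCNQ5 also overlap other annotated transcripts there. KCNJ12 has a near-identical copy elsewhere in the genome, and its 0.322 to 0.607 FPKM are uncertain for that reason.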

How the data were processed

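Values are FPKM as deposited by the authors, 1 column each for vehicle, GSK126, astemizole, scramble shRNA and the EZH2 knockdown. TopHat2, Cuffdiff and hg19 appear in the submitters' processing notes, with no versions. Annotation and filters were not given in the sources used here. Of 28503 lines, 27 names turned into dates and 1716 short non-coding RNA names were left out. The 12925 names that reached 1 FPKM in any column were compared as log2 of FPKM + 1 over FPKM + 1, and an absolute value of 1 or more (2-fold) was counted. This scale understates differences of low genes, and below 1 FPKM it cannot reach 2-fold. No test was run, because each condition has 1 value. Members, families, lists and the rule for named genes were chosen with earlier results of these data known. Named were the KCNH genes, members at 1 FPKM or more, members at 5 FPKM or more, members past 2-fold, members next to the threshold and those at 0, with up to 6 other potassium handling genes by largest ratio; values of KCNJ10, KCNJ12, KCNQ1OT1, ABCC8, ABCC9 and the low KCNA, KCNMB, KCNN and KCNT members lie outside that rule and were chosen after they were seen. Symbols, coding status and promoters came from RefSeq (GRCh38.p14), exon overlaps from GENCODE release 29; no gene coordinates were carried to the hg19 table. Values of a few members are not reported here, though they enter the counts, sums and medians. The log2 ratios and the count past 2-fold were tested on simulated data; the read steps were not. Python 3.11.15, pandas 2.3.3, numpy 2.4.6 and matplotlib 3.10.9 were used. Alternatives were a pseudocount of 0.1 FPKM, rescaling each column to TPM, no filter or a filter at 5 FPKM, the other control column, and other level thresholds.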

Additional observations from a re-analysis of the deposited data

How the results depend on the processing

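Without replicates or read totals, no ratio here has an error. Shares of all genes at the pseudocount of 0.1 FPKM or with the other control column are not given here. Member counts at these settings thus have no background beside them. With a pseudocount of 0.1 FPKM, members at least 2-fold higher numbered 2 for GSK126, 5 for astemizole and 3 for the knockdown. They numbered 2 for astemizole against GSK126 and 1 for scramble against vehicle. Members lower numbered 0, 2, 1, 3 and 2 in the same order. With astemizole against vehicle KCNH2 then had 1.61 and KCNIP3 1.70, and KCND3 had 1.92 with GSK126. After rescaling to TPM, 2 members were higher with GSK126 (KCNN2 at 1.14, KCND3 at 1.21) and 1 was in scramble against vehicle (KCND3 at 1.16). With astemizole against vehicle 3 were higher, KCNH2 at 1.04 among them, and the other member counts stayed the same. That rescaling moved the median of all genes by 0.19 for GSK126, -0.15 for astemizole against GSK126 and 0.23 for scramble against vehicle. Over all genes, 285 were then higher and 70 lower with GSK126, in place of 136 and 123. For scramble against vehicle 84 were higher and 82 lower, in place of 22 and 110. For astemizole against vehicle 543 were higher and 710 lower, in place of 456 and 710. With the other control column, 1 member was higher with GSK126 (KCNMA1 at 1.16), 1 with astemizole and 1 with the knockdown (KCNN2 at 1.02), while KCND3 with astemizole had 0.51 and KCNMA1 and KCNU1 with the knockdown 0.53 and 0.93. A filter at 5 FPKM kept 7 members and 9661 genes. It left 0 members higher with astemizole, beside 3.52% of those genes, and 1 with the knockdown, beside 2.12%. For astemizole against GSK126 it left 0 higher and 1 lower, beside 2.29% and 3.37%. These changes follow from testing fewer genes. Removing the filter added none, since below 1 FPKM 2-fold cannot be reached on this scale. Of the 97 members, 12 were at 1 FPKM or more in all 5 columns. Elsewhere the cause was not tested. No ratio past 2-fold changed sign with the rescaling or the other control, but 7 and 6 smaller ratios of 0.01 or more did, among them astemizole for KCNMA1 (-0.35 to 0.12), KCNK1 (-0.27 to 0.14) and KCNK6 (-0.16 to 0.04) and the knockdown for KCND3 (-0.07 to 0.80), KCNG1 (0.32 to -0.21) and KCNJ11 (0.08 to -0.18), all with the other control.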
